A study of Homo sapiens with 4 samples.

Results

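Expression of 10 genes of innate sensing was examined in Caco-2 cells before and after interferon gamma (IFNγ). The 10 genes were TLR2, TLR3, TLR4, TLR5, NOD1, NOD2, RIPK2, MYD88, IFI16 and STING1, chosen by name from the 37515 genes of the count table, and all 10 had a row. Of the 4 genes with enough counts to test, the strongest change was in MYD88, the adaptor that most Toll-like receptors share, which was 1.94-fold higher after IFNγ, and it was followed by NOD1, a cytosolic sensor of bacterial peptidoglycan, at 1.74-fold. TLR2, a receptor for bacterial lipopeptides, and RIPK2, the kinase that NOD1 and NOD2 signal through, had higher values in both IFNγ libraries without passing the test. None of the 4 was called in the main test, since a call also needed a log2 fold change beyond 1. NOD1 did not pass in DESeq2, another test (adjusted p = 0.0647). The order depended on how GC content was treated: with its trend across genes removed, TLR2 passed and was level with MYD88 (log2 fold changes of 0.76 and 0.77), with NOD1 at 0.63. The other 6 genes gave at most 12 counts in any library, and none of them passed a test that kept genes with low counts.

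Toll-like receptors (TLRs) bind microbial lipids, proteins or nucleic acids at the cell surface or in endosomes, and most of them recruit MYD88, which brings IRAK kinases together and activates NFκB. NOD1 and NOD2 bind fragments of peptidoglycan in the cytosol and act through RIPK2. IFI16 binds DNA, and STING1 passes the signal of cytosolic DNA on to TBK1 and IRF3. In the gut these sensors face a dense microbial community, and epithelial cells are known to keep several of them low or restricted to 1 side of the cell.

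Caco-2 is a human colorectal carcinoma line that takes on enterocyte features when it is grown to confluence, here in transwells, which separate an apical from a basal compartment. The treated cells received 60 ng/ml IFNγ in the basal compartment for 3 h, the control cells were unstimulated and were taken at 0 h, and each condition had 2 libraries, all 4 of them titled as wild type (WT). The effect of IFNγ and that of the 3 h that passed cannot be told apart, and all libraries come from 1 cell line. The labels do not say whether the libraries of a condition came from separate cultures. The p-values therefore measure only the spread between these libraries, which the tests pool in part across genes.

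The libraries held 7171455 to 10365346 counts, so that a normalized read count of 1 CPM, the unit of reads relative to library depth, stood for 7.14 to 10.3 counts and a gene with 0 counts could still be present at up to 0.292 to 0.420 CPM in a library (3 counts). Of 10 genes known to be induced by IFNγ, all 10 had a positive log2 fold change and 7 were called higher, with IRF1 at 5.86. The 12 enterocyte markers were all expressed, with a summed level of 9369 to 11535 CPM. CDX2, an intestinal transcription factor, was called higher (log2 fold change 1.20) and SI, the brush border sucrase, lower (-1.13), a call that was lost with the GC trend described below removed. Of 11 leukocyte, stromal and endothelial markers 7 were tested, and 0 were called by edgeR or DESeq2, with 1 at an unadjusted p under 0.05 (1 more marker was not matched). They summed to 112 to 207 CPM, most of it COL1A1. PTPRC, the pan-leukocyte marker, had 0 counts in 3 libraries and 2 counts in the other. Other leukocyte markers were higher and were among the 7 tested, namely CSF1R, CD4, CD8A and ITGAM. Of these CSF1R had the most counts, with 76 and 57 before and 101 and 75 after IFNγ.

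RefSeq promoter entries (GRCh38.p14) were found for 8 of the 10 genes, in 10 windows of the 250 bases before a transcription start. They were searched on both strands for the gamma-activated site motif, GAS (TTCNNNGAA), a core of the ISRE motif of interferon regulatory factors (GAAA and GAAA with any 2 bases between them) and a loose NFκB motif (GGG and CC with any 5 bases between them). Over all 35116 RefSeq windows of this length, 6.57% held the GAS letters, 3.02% the ISRE core and 54.4% the NFκB motif. The windows of 4 genes are shown 5′ to 3′ with every match in capitals: MYD88 and NOD1, which passed the test below, TLR2, which passed it with a trend with GC content removed, and TLR3, the only other gene whose windows held a GAS match. The MYD88 window (chr3:38138411-38138660, plus strand) held 1 GAS match and 1 ISRE core match, which overlap, starting 67 and 61 bases before the start, and 2 NFκB matches. The NOD1 window (chr7:30478785-30479034, minus strand) held 4 NFκB matches, some of them overlapping, and no GAS or ISRE core match. The TLR2 window (chr4:153684030-153684279, plus strand) held 6 NFκB matches, some of them overlapping, and no match to the other motifs. The TLR3 window (chr4:186068906-186069155, plus strand) held 2 GAS matches, at 178 and 50 bases before the start, and no other match. Of the windows not shown, that of TLR5 held 5 NFκB matches and a NOD2 window held 3. The windows of TLR4 and IFI16 and the other NOD2 window held no match. A match is a run of letters and does not show binding.
MYD88: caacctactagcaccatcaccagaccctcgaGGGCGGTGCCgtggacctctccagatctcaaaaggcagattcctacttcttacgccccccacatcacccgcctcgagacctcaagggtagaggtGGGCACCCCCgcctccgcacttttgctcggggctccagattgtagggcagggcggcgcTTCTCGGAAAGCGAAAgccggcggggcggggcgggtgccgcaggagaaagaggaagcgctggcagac
NOD1: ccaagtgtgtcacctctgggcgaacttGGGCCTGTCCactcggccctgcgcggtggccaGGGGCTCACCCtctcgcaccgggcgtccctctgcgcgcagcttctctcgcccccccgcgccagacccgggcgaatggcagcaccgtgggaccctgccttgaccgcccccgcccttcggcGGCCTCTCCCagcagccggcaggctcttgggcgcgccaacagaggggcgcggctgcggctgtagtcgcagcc
TLR2: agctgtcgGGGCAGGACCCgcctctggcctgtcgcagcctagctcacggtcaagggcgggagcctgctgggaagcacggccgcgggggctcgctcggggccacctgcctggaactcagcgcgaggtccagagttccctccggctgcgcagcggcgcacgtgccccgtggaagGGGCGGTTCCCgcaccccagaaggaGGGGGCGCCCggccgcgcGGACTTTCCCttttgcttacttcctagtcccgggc
TLR3: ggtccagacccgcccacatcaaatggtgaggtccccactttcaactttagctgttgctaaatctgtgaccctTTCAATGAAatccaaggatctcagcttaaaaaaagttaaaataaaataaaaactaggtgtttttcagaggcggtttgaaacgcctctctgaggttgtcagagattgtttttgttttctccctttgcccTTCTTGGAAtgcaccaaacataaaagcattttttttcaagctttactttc

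Across all 14820 genes that passed the filter on low counts, 427 were called higher after IFNγ and 652 lower by edgeR's quasi-likelihood test. A call needed a log2 fold change beyond 1 in either direction besides a p-value under 0.05 after Benjamini-Hochberg adjustment. Of the 10 sensor genes 4 passed the filter, and 0 of these were called in either direction by edgeR or by DESeq2, beside 2.88% of all tested genes called higher and 4.40% called lower. By the adjusted p-value alone 2 of the 4, MYD88 and NOD1, were higher and 0 lower, beside 9.02% of tested genes higher and 11.0% lower. At an unadjusted p under 0.05, 3 of the 4 passed, the third being TLR2. In all 4 tested genes both IFNγ libraries lay above both unstimulated libraries, a pattern that 31.6% of all tested genes showed. The median log2 fold change of the 4 was 0.60, and that of all tested genes was -0.01. In bulk RNA, more cells that express a gene and more RNA of it per cell cannot be told apart.

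**Figure D1:**
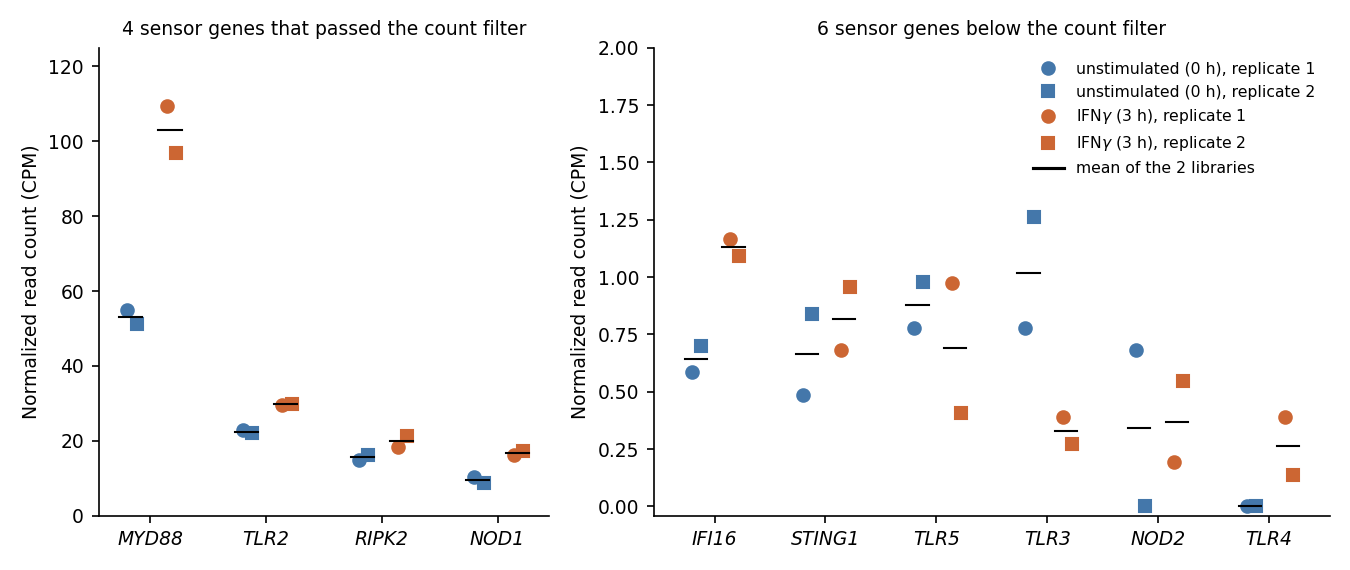
Normalized read counts (CPM, scaled by TMM) of the sensor genes in each library, with circles for replicate 1, squares for replicate 2 and a line at the mean of the 2 libraries; the left and right panels have different scales. MYD88 moves from 54.9 and 51.3 CPM to 109 and 96.9 CPM, and the 6 genes on the right stay below 1.3 CPM in every library.

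MYD88 (ENSG00000172936, chr3:38180043-38184515 on GRCh37, plus strand) had 564 and 366 counts before and 1124 and 710 counts after IFNγ. In normalized values these were 54.9 and 51.3 CPM before and 109 and 96.9 CPM after. The lower IFNγ value was thus well above the higher unstimulated value, and no other gene's exons overlap those of MYD88. The mean rose from 53.1 ± 2.57 to 103 ± 8.81 CPM (SD, n = 2 each), a log2 fold change of 0.96 (SE 0.13, adjusted p = 0.00364). This is just under the fold change threshold, so MYD88 was not called, although it passed the adjusted p-value in each of the 14 alternative settings tried, with log2 fold changes of 0.77 to 1.02. It crossed the fold change threshold as well when unstimulated replicate 1 (1.01) or IFNγ replicate 2 (1.02) was left out.

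NOD1 (ENSG00000106100, chr7:30464143-30518400 on GRCh37, minus strand) had 107 and 62 counts before and 167 and 127 after IFNγ, which gave 10.4 and 8.69 CPM before and 16.2 and 17.3 CPM after. The conditions did not overlap, and the mean rose from 9.55 ± 1.23 to 16.8 ± 0.767 CPM (log2 fold change 0.80, SE 0.19, adjusted p = 0.0244). NOD1 no longer passed in DESeq2 (adjusted p = 0.0647, and 0.0801 without independent filtering) or when unstimulated replicate 2, the library with the lowest value, was left out (0.70, adjusted p = 0.0718). An antisense gene on the opposite strand, ENSG00000272638, overlaps its exons and had no row in the count table, so its reads could not be examined. Whether reads were counted by strand is not given in the sources used here.

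NOD2 (ENSG00000167207, chr16:50727499-50766988 on GRCh37, plus strand), the receptor for muramyl dipeptide and a relative of NOD1, had 7 and 0 counts before and 2 and 4 counts after. The conditions overlapped, and the ratio of the summed counts, scaled for depth, was 0.847 (95% exact interval 0.235 to 2.94, which here and below covers counting error only). RIPK2 (ENSG00000104312, chr8:90770034-90803292 on GRCh37, plus strand), which relays the signal of both receptors, had 14.9 and 16.3 CPM before and 18.4 and 21.3 CPM after. Its conditions did not overlap, but the difference between 15.6 ± 0.957 and 19.8 ± 2.05 CPM did not pass the test (log2 fold change 0.35, SE 0.17, adjusted p = 0.186). RIPK2-DT, which overlaps RIPK2 on the other strand, had 40 and 37 counts before and 42 and 20 after, beside 153 and 116 and then 189 and 156 counts of RIPK2 itself.

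TLR2 (ENSG00000137462, chr4:154605222-154627412 on GRCh37, plus strand) was the only gene among the 4 listed TLRs that passed the filter. Its values were 22.9 and 22.0 CPM in unstimulated cells and 29.7 CPM in each IFNγ library. The libraries of a condition lay close together and the conditions did not overlap, with means of 22.4 ± 0.627 and 29.7 ± 0.0552 CPM. The log2 fold change was 0.40 (SE 0.14), and the adjusted p was 0.0859. No other gene's exons overlap those of TLR2.

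The other 3 TLRs were near the limit of detection. TLR3 (ENSG00000164342, chr4:186990065-187009227 on GRCh37, plus strand), the endosomal receptor for double-stranded RNA, had 8 and 9 counts before and 4 and 2 counts after IFNγ. The conditions did not overlap and the ratio was 0.349 (95% exact interval 0.113 to 0.927), but in the fit without a filter on low counts TLR3 did not pass (adjusted p = 0.244). TLR5 (ENSG00000187554, chr1:223282746-223316590, minus strand), the flagellin receptor, had 8 and 7 counts before and 10 and 3 after, a ratio of 0.857 (0.375 to 1.93) with overlapping conditions. TLR4 (ENSG00000136869, chr9:120466453-120487013, plus strand), the lipopolysaccharide receptor, had 0 counts in both unstimulated libraries and 4 and 1 counts after IFNγ (0.389 and 0.136 CPM). These values lie around the 3 counts per library that a count of 0 allows, so no fold is given. It did not pass in the fit without a filter (adjusted p = 0.317), and ENSG00000285082 overlaps its exons on the same strand.

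IFI16 and STING1, the sensor genes of the DNA pathway, were also low. CGAS, which was not on the sensor list, was higher, at 22.3 CPM before and 18.1 CPM after. IFI16 (ENSG00000163565, chr1:158969758-159024945 on GRCh37, plus strand), a DNA-binding protein that is itself known to be inducible by interferon, had 6 and 5 counts before and 12 and 8 after. Its conditions did not overlap (0.584 and 0.701 CPM before, 1.17 and 1.09 CPM after), and the ratio of 1.80 had an interval of 0.821 to 4.15. STING1 (ENSG00000184584, chr5:138855118-138862520, minus strand) had 5 and 6 counts before and 7 counts in each IFNγ library, a ratio of 1.26 (0.531 to 3.06). Neither passed in the fit without a filter on low counts, where the adjusted p was 0.566 for IFI16 and 0.831 for STING1, and 0 of the 6 low genes passed there, with the other adjusted p-values at 0.244 to 0.979. None of the 6 had an unadjusted p under 0.05 in that fit.

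The level of the 10 genes was compared per kilobase of annotated exon, since longer transcripts give more reads. MYD88 was highest, at 12.7 ± 0.614 CPM per kb in unstimulated and 24.6 ± 2.10 in IFNγ cells. RIPK2 followed at 5.09 ± 0.313 and 6.48 ± 0.671 CPM per kb, then TLR2 at 3.89 ± 0.109 and 5.14 ± 0.00956, and NOD1 at 1.40 ± 0.180 and 2.46 ± 0.112. Each of these 4 was apart from the next in both conditions, with no overlap between libraries, and NOD1 was in turn apart from the 6 low genes. Among the latter STING1, TLR3, IFI16 and TLR5 lay at 0.114 to 0.138 CPM per kb in unstimulated cells and each overlapped with the next, while NOD2 was at 0.0447 and TLR4 at 0. After IFNγ the order of the low genes was IFI16 at 0.213, STING1 at 0.170, TLR5 at 0.0894, NOD2 at 0.0486, TLR3 at 0.0442 and TLR4 at 0.0198 CPM per kb. In that order TLR5 overlapped with NOD2 and NOD2 with TLR3, all on counts of 10 or fewer. MYD88 was thus measured at a higher level per kb than each of the listed TLRs, and RIPK2 at a higher level than NOD1 and NOD2. Receptors outside the 10 genes were not compared per kb.

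**Figure D2:**
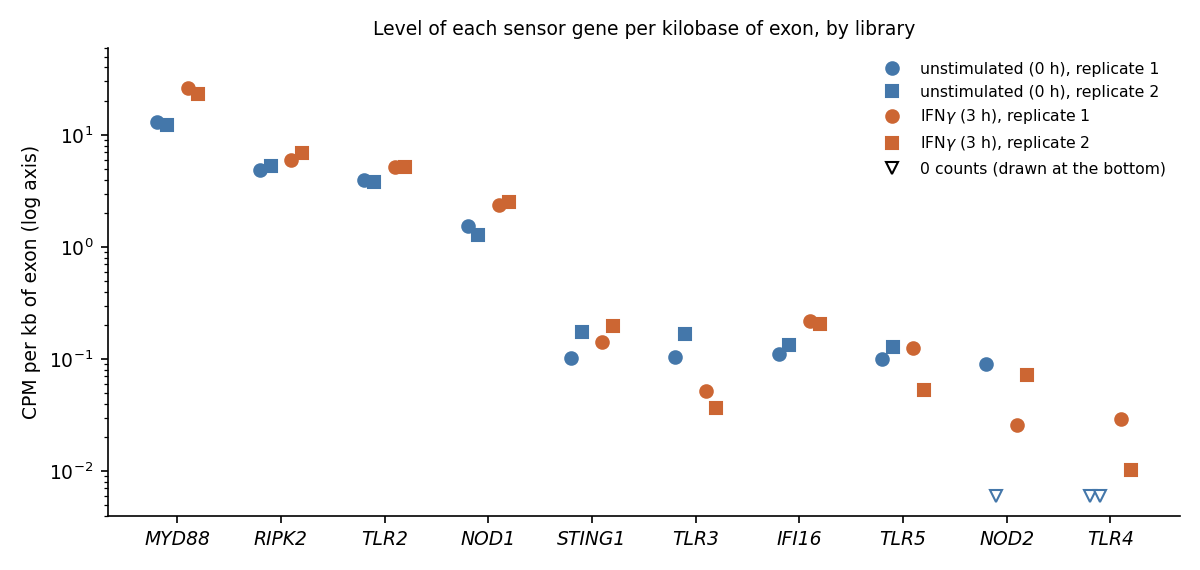
Level of the 10 sensor genes in each library, in CPM per kilobase of annotated exon on a log axis, ordered by the level in unstimulated cells; open triangles at the bottom stand for 0 counts. MYD88, RIPK2, TLR2 and NOD1 lie above 1 CPM per kb in every library and the other 6 genes below 0.3.

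The size of the change depended on how the GC content of genes was treated. Across 14518 tested genes with an annotated sequence the log2 fold change went with GC content (Spearman rho = 0.431 across genes that were all measured in the same 4 libraries). With the genes split by GC content into 4 bins of equal size, the median log2 fold change was -0.37 in the lowest bin, up to 41.8% GC, then -0.09 and 0.13, and 0.21 in the highest bin, from 56.0%. MYD88 (53.9% GC) and NOD1 (54.6%) lie in the bin below the highest, and TLR2 (39.3%) and RIPK2 (41.6%) in the lowest. When the trend with GC content and transcript length was removed from each library, the log2 fold change of MYD88 was 0.77 (SE 0.13, adjusted p = 0.00424) and that of TLR2 was 0.76 (SE 0.15, adjusted p = 0.00933). NOD1 was then at 0.63 (adjusted p = 0.0465) and RIPK2 at 0.55 (adjusted p = 0.0574). With this correction 3 of the 4 tested genes passed the adjusted p-value, TLR2 among them, beside 9.06% of all genes tested in that fit. Without the correction the 4 genes spread from 0.35 to 0.96, and with it from 0.55 to 0.77. Whether the trend with GC content is technical was not tested, nor was the difference between the 4 genes.

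**Figure D3:**
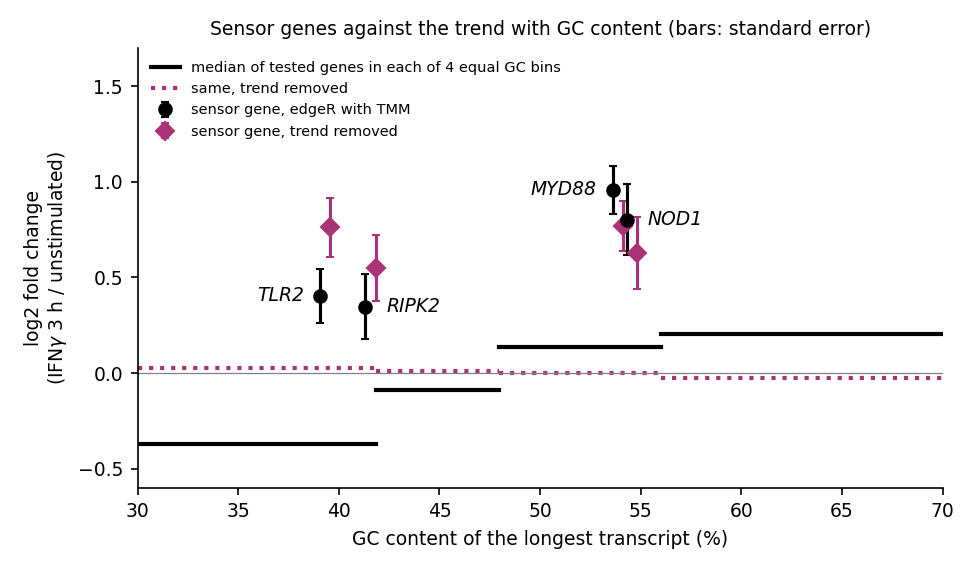
Log2 fold change (IFNγ 3 h over unstimulated) of the 4 tested sensor genes against the GC content of their longest transcript, before (black) and after (purple) removal of the GC and length trend, with bars for the standard error and points moved slightly sideways so that both can be seen. Horizontal lines are the medians of all tested genes in each of 4 equal bins of GC content, from -0.37 to 0.21 before removal; TLR2 moves up from 0.40 to 0.76 and MYD88 down from 0.96 to 0.77.

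**Figure D4:**
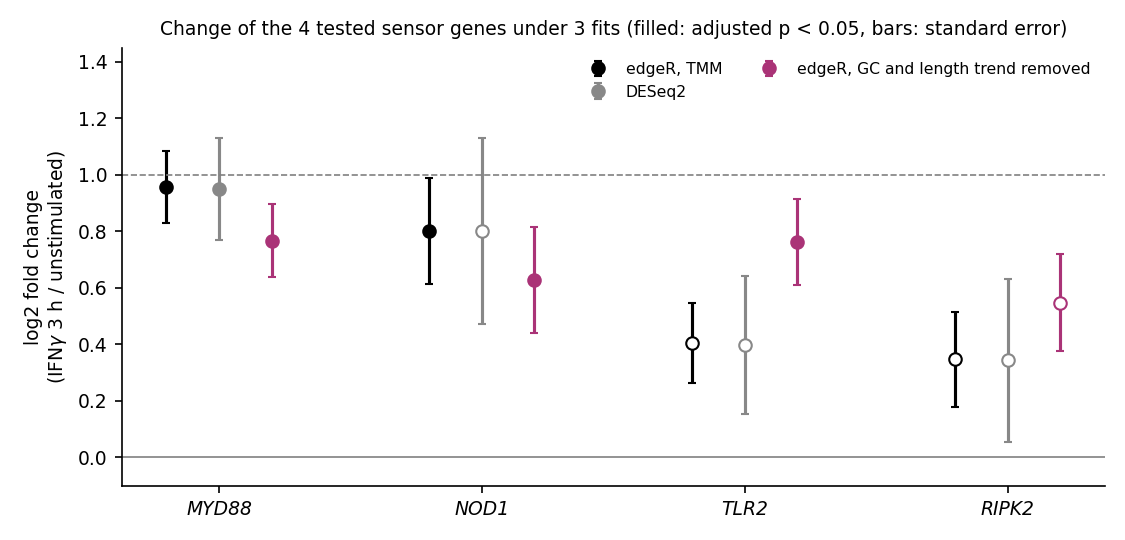
Log2 fold change of the 4 tested sensor genes in edgeR with TMM scaling, in DESeq2 and in edgeR with the GC and length trend removed, with bars for the standard error and filled points where the adjusted p is under 0.05. MYD88 is filled in all 3 fits, NOD1 is open in DESeq2, TLR2 is filled only with the trend removed, and RIPK2 is open in all 3.

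Around the sensors, 6 lists of 100 further genes of the same pathways were examined, of which 97 had a row and 63 were tested. Of these 3 (4.76%) were called higher and 2 (3.17%) lower, beside 2.88% and 4.40% of all tested genes. The 3 include RTP4, whose place in these lists is uncertain, as described below. By the adjusted p-value alone 8 (12.7%) were higher and 10 (15.9%) lower, beside 9.02% and 11.0%. With the GC trend removed 9 (14.3%) were higher and 4 (6.35%) lower, beside 9.06% and 7.36%. Among the TLR adaptors and kinases IRAK2, a kinase that MYD88 recruits, rose from 6.96 ± 1.85 to 16.6 ± 1.61 CPM (log2 fold change 1.27, SE 0.24, adjusted p = 0.0107), with 58 and 59 counts before and 159 and 130 after. It was not called without unstimulated replicate 1. TOLLIP, a regulator that binds IRAK1, passed the adjusted p-value at 0.62, while TAB2 (-0.73), MAP3K7 (-0.75), which encodes the kinase TAK1, IRAK4 (-0.71) and PELI2 (-0.68) passed it downwards. IRAK1 was at 0.26 and TICAM1, the adaptor of TLR3, at 0.16, and neither passed. With the GC trend removed TAB2, MAP3K7, IRAK4, PELI2 and TOLLIP no longer passed (adjusted p = 0.0801, 0.105, 0.105, 0.218 and 0.0750). The list had 16 tested of 18 genes and a median of 0.06, and TICAM2 had 0 counts in all libraries. TOLLIP, MAP3K7, IRAK4, PELI2 and TICAM1 are named here after their values were seen.

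Of the other TLRs and their co-receptors and chaperones, 6 of 14 genes with a row were tested, with a median of 0.58. RTP4, an interferon-inducible protein known as a receptor transporter, was the only called gene of this list, with 7 and 5 counts before and 37 and 29 after (log2 fold change 2.43, SE 0.40, adjusted p = 0.00703), and it passed the filter through its IFNγ libraries. RTP4 was placed in this list by hand, and a role of it for TLRs is not established. HSP90B1, the chaperone that TLRs need for folding, was at -0.30 and its partner CNPY3 at 0.32, and neither passed. CD14, which hands lipopolysaccharide to TLR4, had 4.13 ± 0.890 CPM before and 7.30 ± 2.21 CPM after (log2 fold change 0.82, adjusted p = 0.116). LY96, without which TLR4 does not bind lipopolysaccharide, had 1 count in 1 unstimulated library and 0 in the others, and LBP had 3 and 2 counts before and 0 after. TLR9 and TLR10 had 0 counts in all libraries. CD14, LY96, LBP, TLR9 and TLR10 were chosen after their values were seen.

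Among the partners of NOD1 and NOD2 and other NOD-like receptors, 15 of 22 genes were tested, with a median of 0.18. ERBIN, which binds NOD2, was the called gene of this list, with 246 ± 11.8 CPM before and 119 ± 21.9 CPM after (log2 fold change -1.04, SE 0.15, adjusted p = 0.00449). ERBIN, a gene of 35.7% GC, was at -0.37 with the trend removed (adjusted p = 0.0716), and it was not called with upper quartile scaling, without unstimulated replicate 2 or without IFNγ replicate 2. TNFAIP3, which encodes the deubiquitinase A20 that restrains both pathways, fell from 57.5 ± 2.62 to 30.2 ± 0.963 CPM (log2 fold change -0.93, adjusted p = 0.00437), and it was at -0.93 with the trend removed as well (adjusted p = 0.00256). BIRC2, a ubiquitin ligase of the RIPK2 complex, was at -0.93 (adjusted p = 0.00868), and at -0.50 with the trend removed (adjusted p = 0.0404). SLC15A1, the apical peptide transporter that can carry muramyl dipeptide, passed the adjusted p-value at 0.42 (adjusted p = 0.0338), as did RNF31 (0.56) and ATG16L1 (0.54). SLC15A1, RNF31 and ATG16L1 did not pass with the GC trend removed. In the main test CYLD, another deubiquitinase of these pathways, was at 0.41 (adjusted p = 0.146) and did not pass. XIAP, a ubiquitin ligase of RIPK2, was at 0.06 there (adjusted p = 0.736), and OTULIN at 0.18 (adjusted p = 0.398). Only with the GC trend removed did they pass, CYLD at 0.86 (adjusted p = 0.00616), XIAP at 0.57 (adjusted p = 0.0241) and OTULIN at 0.45 (adjusted p = 0.0469). Below the filter, SLC15A3, an endolysosomal transporter of muramyl dipeptide, had 4 and 2 counts before and 7 and 21 after (ratio 4.61, 95% exact interval 1.87 to 13.6). NLRP3 had 0 and 1 counts before and 8 and 9 after (ratio 16.8, 2.63 to 702). Both were called higher in the fit without a filter. That fit took the spread wholly from all genes pooled, so the uneven 7 and 21 counts of SLC15A3 did not enter as its own spread. PYCARD, the adaptor of NLRP3, had 0 counts in all libraries. Apart from ERBIN and SLC15A1, the genes of this list were named after their values were seen.

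In cytosolic DNA sensing 15 of 19 genes with a row were tested, with a median of -0.01, and 0 were called by edgeR or DESeq2, with 5 at an unadjusted p under 0.05. CGAS, which makes the messenger that activates STING1, was at 22.3 ± 2.92 CPM before and 18.1 ± 3.33 CPM after (log2 fold change -0.30, adjusted p = 0.304), and its conditions overlapped. PRKDC (-0.84, adjusted p = 0.00694) and MRE11 (-0.89, adjusted p = 0.0105), both better known for DNA repair, passed the adjusted p-value downwards, and with the GC trend removed PRKDC still passed and MRE11 did not (adjusted p = 0.0203 and 0.0877). XRCC5 was at -0.23 and XRCC6 at 0.10, and neither passed. TBK1 (-0.92, adjusted p = 0.108) and IRF3 (0.11, adjusted p = 0.631), which act after STING1, did not pass either. TBK1 had 333 and 289 counts before and an uneven 275 and 81 after. It passed in DESeq2 (adjusted p = 0.0355) and with a replicate block (adjusted p = 0.0483), and was at -0.35 with the GC trend removed (adjusted p = 0.437). AIM2 had 1 count in 1 IFNγ library and 0 in the others. CGAS, PRKDC, MRE11, TBK1, IRF3 and AIM2 were chosen after their values were seen.

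In cytosolic RNA sensing 6 of 8 genes were tested, with a median of 0.42. ZC3HAV1, an antiviral protein that binds viral RNA, rose from 62.7 ± 4.42 to 182 ± 21.1 CPM (log2 fold change 1.54, SE 0.13, adjusted p = 0.00115). TRIM25, the ubiquitin ligase that activates RIG-I, passed the adjusted p-value at 0.70 (adjusted p = 0.00592). RIGI, the RNA sensor itself, was at 0.43 (adjusted p = 0.209), and at 0.78 with the GC trend removed (adjusted p = 0.0234). IFIH1 (0.41, adjusted p = 0.147), MAVS (-0.04, adjusted p = 0.855) and EIF2AK2 (-0.30, adjusted p = 0.139) did not pass. With the GC trend removed EIF2AK2 was at 0.22 (adjusted p = 0.274). Of 16 genes that these pathways switch on, which are cytokines, chemokines and the NFκB regulators NFKBIA and NFKBIZ, 5 were tested, with a median of 0.21. IL1B was called lower, with 12 and 11 counts before and 2 in each IFNγ library (log2 fold change -2.48, SE 0.61, adjusted p = 0.0301), having passed the filter through its unstimulated libraries. It did not pass in DESeq2 without independent filtering (adjusted p = 0.203), and it was not called in any of the 4 fits that left out a library. CXCL2 had 5 and 8 counts before and 14 in each IFNγ library, and did not pass (log2 fold change 1.07, SE 0.54, adjusted p = 0.208). CCL20 (0.46, adjusted p = 0.573) did not pass either, and its conditions overlapped. NFKBIA (-0.12) and NFKBIZ (0.21), early targets of NFκB, did not pass, and IL6, IFNB1, IFNL2 and IFNL3 had 0 counts in all libraries. CCL2, below the filter, had 1 count in each unstimulated library and 9 and 8 after. It was called higher in the fit without a filter, where a gene's own spread did not enter. RIGI, IFIH1, MAVS, EIF2AK2, CXCL2, CCL20, IL6, IFNB1, IFNL2, IFNL3 and CCL2 were chosen after their values were seen.

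**Figure D5:**
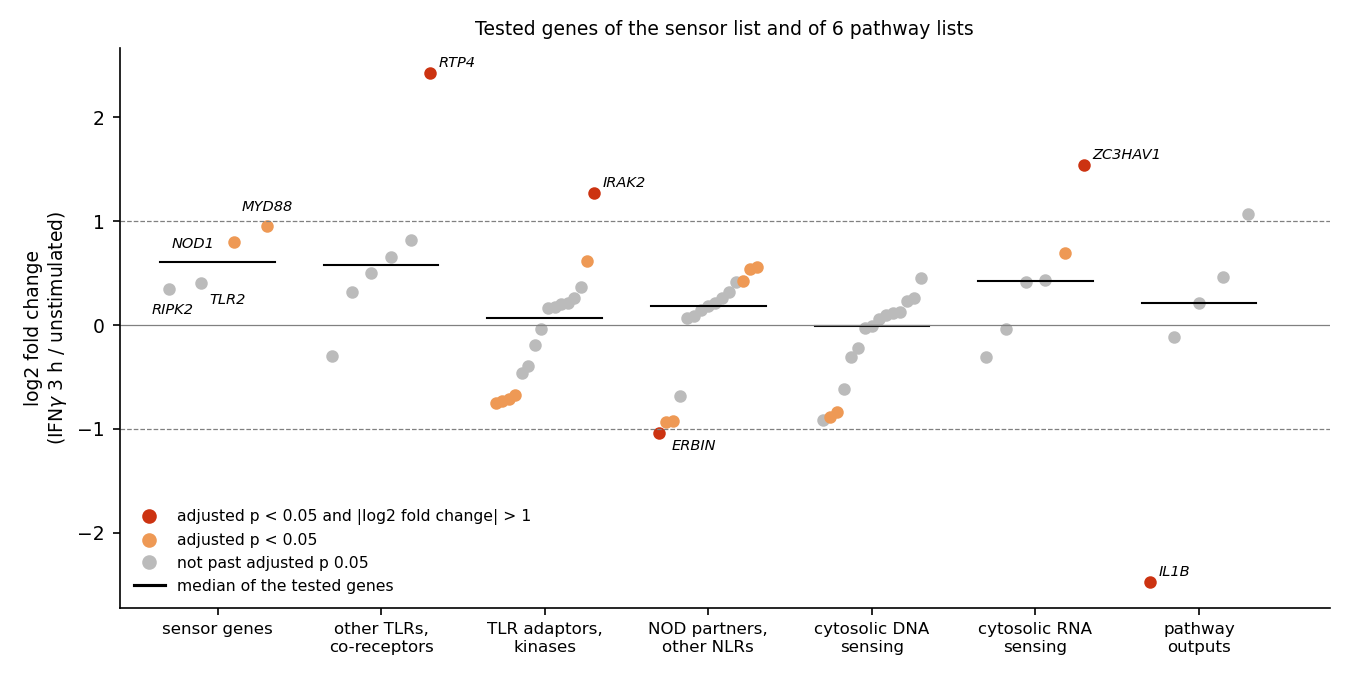
Log2 fold change (IFNγ 3 h over unstimulated) of each tested gene of the sensor list and of the 6 pathway lists, coloured by the test, with a line at the median of each list and dashed lines at the fold change threshold of 1 in either direction. The 5 labelled genes outside the sensor list are those called, RTP4, IRAK2 and ZC3HAV1 higher and ERBIN and IL1B lower; the medians of the lists lie between -0.01 and 0.60.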

How the data were processed

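RNA-seq libraries of 4 Caco-2 samples were used, 2 per condition by the titles. The values the authors deposited are read counts for each Ensembl gene and library, with no normalization and no pooling. The submitters' processing notes name HISAT 0.5.1 and HTSeq 0.6.1p1. The genome build, annotation and strand setting used for these libraries are not given in the sources used here.

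Counts were filtered by edgeR's default filter, scaled by TMM and tested by edgeR 4.0.16's quasi-likelihood test (R 4.3.3) with condition as the only term and Benjamini-Hochberg adjustment over all 14820 tested genes. Calls needed a log2 fold change beyond 1 in either direction besides an adjusted p under 0.05. "Rose" and "fell" mean an adjusted p under 0.05. Standard errors are the log2 fold change over the square root of F. For genes below the filter, summed counts were compared by an exact conditional binomial interval (95%). Coordinates, exon lengths and GC content came from GENCODE 44 on GRCh37, and promoters from RefSeq on GRCh38.p14, with no conversion between them. Symbols were found for 96.5% of identifiers. The trend with GC content and length was removed by a loess fit per library.

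The sensor genes, the pathway lists and the markers were chosen with earlier results of these data known. Besides all 10 sensor genes, the text names every called gene of the other lists and, per pathway list, the 2 tested genes of highest mean CPM. No sensor gene was called, so no gene was sought for likeness to one. Alternatives were DESeq2 1.42.0, other scalings and filters, a replicate block, the GC and length trend removed, and each library left out. The scripts were tested on simulated data. With 2 libraries against 2, an exact permutation test cannot go below p = 0.333, so none was used.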

Additional observations from a re-analysis of the deposited data

How the results depend on the processing

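The log2 fold change of each of the 4 tested sensor genes was positive in all 14 alternative settings. MYD88 (0.77 to 1.02) stayed past the adjusted p-value in all of them, NOD1 (0.62 to 0.95) in 11, and TLR2 (0.36 to 0.76) and RIPK2 (0.22 to 0.55) stayed short of it in 11 and 13. Samples share replicate numbers, but the labels do not say that a number marks a shared culture. Same-numbered libraries deviated together (r = 0.415 across 14820 genes). With the number as a block 492 genes were called higher and 896 lower, and 3 sensor genes passed the adjusted p-value in place of 2, with TLR2 added (0.40, adjusted p = 0.0393). With the GC trend removed as well 4 passed, RIPK2 among them (0.54, adjusted p = 0.00475). Without the block the log2 fold change of RIPK2 was nearly the same (0.55, adjusted p = 0.0574). The fit with both pooled the spread more strongly across genes. The block changed no other call on the sensor genes. In DESeq2, with or without independent filtering, 1 passed. Without a fold change threshold 2 sensor genes were called, and in all 1337 genes higher and 1626 lower. With the GC trend removed 346 genes were called lower in place of 652. Leaving out each library gave 0 to 1 sensor genes called, 1 to 2 past the adjusted p-value, and 554 to 1112 genes called lower, the most without IFNγ replicate 1, which left the lone IFNγ library assumed to vary like the others. Of the pathway lists, 3 genes were called higher, 6 without a filter on low counts and 8 without a fold change threshold. The lower calls went from 2 to 1 with upper quartile scaling, in DESeq2 with or without independent filtering, with a minimum of 10 counts per library, and with the GC trend removed, with or without the block. They went to 10 without a fold change threshold, and to 0 to 5 with each library left out. With the length of the longest transcript 6 of 10 sensor genes kept their place in the order of levels, with TLR5 moving to place 5. The causes were not tested, other than that fewer samples or another threshold enter by construction. Depth limits the 6 low sensor genes.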
